A study of Mus musculus with 2 samples.

Results

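The genes described here build, maintain and traffic through the cilium of retinal photoreceptors. They are 39 named genes, all found among the 21887 protein-coding genes of the GRCm38 RefSeq gene table. They were listed by name and not by any measured value, though earlier results of these data were known when they were chosen. ATAC-seq was used to read open chromatin: Tn5, a transposase, cuts adapters into accessible DNA, and the number of its insertions in a stretch of the genome is taken as a measure of how open that stretch was. The tissue was flash-frozen neural retina of adult C57BL/6 littermates, with 1 library from a Gabra3 knockout mouse and 1 from a wild-type mouse. Gabra3 encodes a GABA-A receptor subunit. The sources used here do not give the knockout allele, the sex of the mice or an age beyond adult. Single-end reads of 75 bp came from 20000 nuclei per library.

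A photoreceptor carries its light-sensing outer segment on a modified primary cilium. Proteins made in the inner segment reach the outer segment through the connecting cilium, which corresponds to the transition zone of other primary cilia. Intraflagellar transport moves cargo along the axoneme on trains of IFT-B and IFT-A proteins, outward with kinesin-2 and back with dynein-2. The BBSome is a coat-like complex that carries membrane proteins with these trains, and defects of many of these genes are known from inherited retinal degeneration. Ciliary genes are classical targets of RFX transcription factors, which bind the X-box, an inverted repeat with arms of the form GTTGCC.

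The knockout library held 7646373 insertions and the wild-type library 7635799, after poorly placed reads and repeats of a position and strand were removed. Of the autosomal insertions, 18.8% of the knockout library and 19.6% of the wild-type library fell into 37044 open regions called on both libraries together. Ratios at promoters and open regions are log2 of knockout over wild type, scaled to these autosomal insertions in open regions. Scaling to all autosomal insertions lowers each of them by 0.06. Promoters of the 12 rod markers, genes of the most numerous retinal cells, summed to 1135 knockout and 1267 wild-type insertions, and each of the 12 had at least 20 over both libraries. Those of 5 vascular and 6 microglial or immune markers summed to 31 and 34 knockout insertions and to 30 and 39 wild-type insertions, with no marker at 0 over both libraries. Promoters of 6 liver and muscle markers summed to 107 knockout and 133 wild-type insertions, most of them at Ckm (66 knockout and 85 wild-type insertions). Those of 6 retinal pigment epithelium markers summed to 220 and 233, with 124 and 118 at Mitf and 88 and 104 at Pmel. Cone (7), bipolar (6) and Muller glia (6) markers summed to 181 and 156, 162 and 156, and 158 and 183. Amacrine (5) and ganglion (6) markers summed to 51 and 63, and 69 and 44. The lists differ in size, so their sums are not levels per gene. Gabra3 itself (chrX:72432676-72656919) held 121 knockout and 126 wild-type insertions over its body, and 2 and 0 at its promoter, which leaves the genotype label unchecked by the data. With 1 library per genotype there is no replicate check, and each comparison is between these libraries, not between genotypes. Intervals are exact 95% Clopper-Pearson intervals and cover counting error only. In bulk tissue, fewer cells with open DNA and less open DNA per cell cannot be told apart.

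The promoter sequences of 34 of the 39 genes were available, from RefSeq on GRCm38.p6. Each window runs from 250 bases before to 50 bases after an annotated transcription start, and for genes with several starts the start with most insertions was used. The stretches below are the 130 bases just before the start, read 5′ to 3′ on the gene's strand, and are shown because they carry the regulatory letters discussed next. Capitals mark an X-box or an X-box arm in the genes from Bbs7 to Ift140, a TAATCC letter run (the core recognised by the photoreceptor factor CRX) on either strand in Rpgrip1, and an NRF1 match in Arl3 and Rpgr. Ift140, Rpgrip1, Arl3 and Rpgr carry theirs on the opposite strand, printed for the first pair as GGCAAC and GGATTA. In Kif17 the first run of capitals is a CRE (TGACGTCA) and the second an X-box arm.
Bbs7: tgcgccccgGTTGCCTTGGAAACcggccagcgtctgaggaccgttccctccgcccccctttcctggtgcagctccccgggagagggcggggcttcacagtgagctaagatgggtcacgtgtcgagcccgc
Mks1: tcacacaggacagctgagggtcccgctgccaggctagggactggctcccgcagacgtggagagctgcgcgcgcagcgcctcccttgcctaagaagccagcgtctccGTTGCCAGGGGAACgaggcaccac
Ift57: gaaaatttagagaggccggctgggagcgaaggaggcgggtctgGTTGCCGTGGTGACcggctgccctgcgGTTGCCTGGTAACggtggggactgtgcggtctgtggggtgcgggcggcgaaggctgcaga
Kif17: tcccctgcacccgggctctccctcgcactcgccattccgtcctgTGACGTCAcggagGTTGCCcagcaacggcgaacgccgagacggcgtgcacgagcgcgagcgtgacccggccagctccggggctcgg
Kif3a: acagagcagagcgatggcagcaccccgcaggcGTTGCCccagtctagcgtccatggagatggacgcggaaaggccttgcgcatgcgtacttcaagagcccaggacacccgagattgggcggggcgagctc
Ift140: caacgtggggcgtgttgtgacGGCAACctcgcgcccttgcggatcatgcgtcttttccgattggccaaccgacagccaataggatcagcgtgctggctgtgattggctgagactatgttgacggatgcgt
Rpgrip1: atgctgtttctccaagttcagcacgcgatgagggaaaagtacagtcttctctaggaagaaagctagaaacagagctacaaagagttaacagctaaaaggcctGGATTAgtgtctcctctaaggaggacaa
Arl3: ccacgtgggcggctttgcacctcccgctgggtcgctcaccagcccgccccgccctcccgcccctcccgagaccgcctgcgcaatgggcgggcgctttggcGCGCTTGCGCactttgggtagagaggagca
Rpgr: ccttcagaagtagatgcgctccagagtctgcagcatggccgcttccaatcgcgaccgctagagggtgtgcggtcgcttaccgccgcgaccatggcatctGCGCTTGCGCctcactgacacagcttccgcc
On GRCm38 these stretches are chr3:36613390-36613519 (minus strand) for Bbs7, chr11:87853085-87853214 for Mks1, chr16:49699164-49699293 for Ift57, chr4:138262121-138262250 for Kif17, chr11:53567239-53567368 for Kif3a, chr17:25015956-25016085 for Ift140, chr14:52110773-52110902 for Rpgrip1, chr19:46573183-46573312 (minus strand) for Arl3 and chrX:10216796-10216925 (minus strand) for Rpgr. Those with no strand given are on the plus strand.

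These stretches were open in both libraries. The Bbs7 stretch held 37 knockout and 39 wild-type insertions, and the Mks1 stretch 27 and 33. For Ift57 they were 60 knockout and 63 wild-type insertions, and for Ift140 56 and 54. The stretches of Arl3 held 27 and 30, those of Rpgr 32 and 28, and those of Kif3a 32 and 39. Rpgrip1 had the fewest, 10 knockout and 15 wild-type insertions. Kif17 had 32 knockout and 18 wild-type insertions in the stretch, a gap that narrowed to 78 and 68 over its whole promoter window.

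X-box letters were more frequent in these 34 promoters than in promoters at large, which is a count of letters and not evidence of binding. The arm GTTGCC, searched on both strands, occurred in 13 of the 34 (38.2%), against 12.7% of all 17492 protein-coding promoters and 13.2% of the 6836 promoters with at least 100 insertions over both libraries. The 13 are Arl13b, Bbs1, Bbs5, Bbs7, Ift140, Ift172, Ift27, Ift57, Ift88, Kif17, Kif3a, Lca5 and Mks1. The full X-box was searched as GTT, a free base and CC, then 2 free bases, then GG, a free base and AAC. It occurred in 2, Bbs7 and Mks1 (5.88%), against 0.394% of all promoters and 0.5998% of those with at least 100 insertions. With at most 1 mismatch in its fixed letters it occurred in 6 (17.6%), Bbs1, Bbs4, Bbs7, Ift22, Ift57 and Mks1, against 2.53% of all and 3.45% of those with at least 100 insertions. Ift57 also held an exact X-box with its arms spaced by 1 free base, starting at position -60 from the start, beside the copy with 1 mismatch at -87. The arm was the first part of the full form in Bbs7 and Mks1, so both count under each.

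Promoters with and without the arm had overlapping levels. The 13 with GTTGCC had a median of 221 insertions over both libraries (38 to 438) within 500 bp of the start, and the 21 without it had a median of 191 (76 to 455).

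Other promoter letters were counted in the same way. CCAAT, searched on both strands like the rest, occurred in 22 of 34 (64.7%), against 38.9% of all promoters and 41.9% of those with at least 100 insertions. The GC box GGGCGG occurred in 20 (58.8%), against 47.7% of all and 74.0% of those with at least 100 insertions. The NRF1 motif occurred in 4 (11.8%, against 6.81% of all promoters and 15.04% of those with at least 100 insertions), Arl3, Ift172, Kif3a and Rpgr, and the CRE letters TGACGTCA in 2, Ift57 and Kif17 (5.88%, against 2.37% of all and 4.26% of those with at least 100 insertions). TAATCC occurred in 2, Rpgrip1 and Bbs1 (5.88%), against 6.45% of all promoters and 5.40% of those with at least 100 insertions. The 34 windows had a median GC content of 59.8%, with Rpgrip1 and Cc2d2a lowest (42.7% and 48.0%) and each with 3 CpG dinucleotides, against a median of 22 CpG over the 34.

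Cilium promoters were open in both libraries, at a level well above that of a typical gene. A promoter here is a window of 500 bp to each side of whichever gene end held more insertions, since the gene table gives no strand. Of the 39 promoters 29 (74.4%) held at least 100 insertions over both libraries, against 34.3% of all protein-coding genes. The median promoter held 99 knockout and 103 wild-type insertions, against 13 and 13 over all genes. The plot of promoter insertions by gene shows the spread between genes to be far larger than the gap between libraries.

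**Figure D1:**
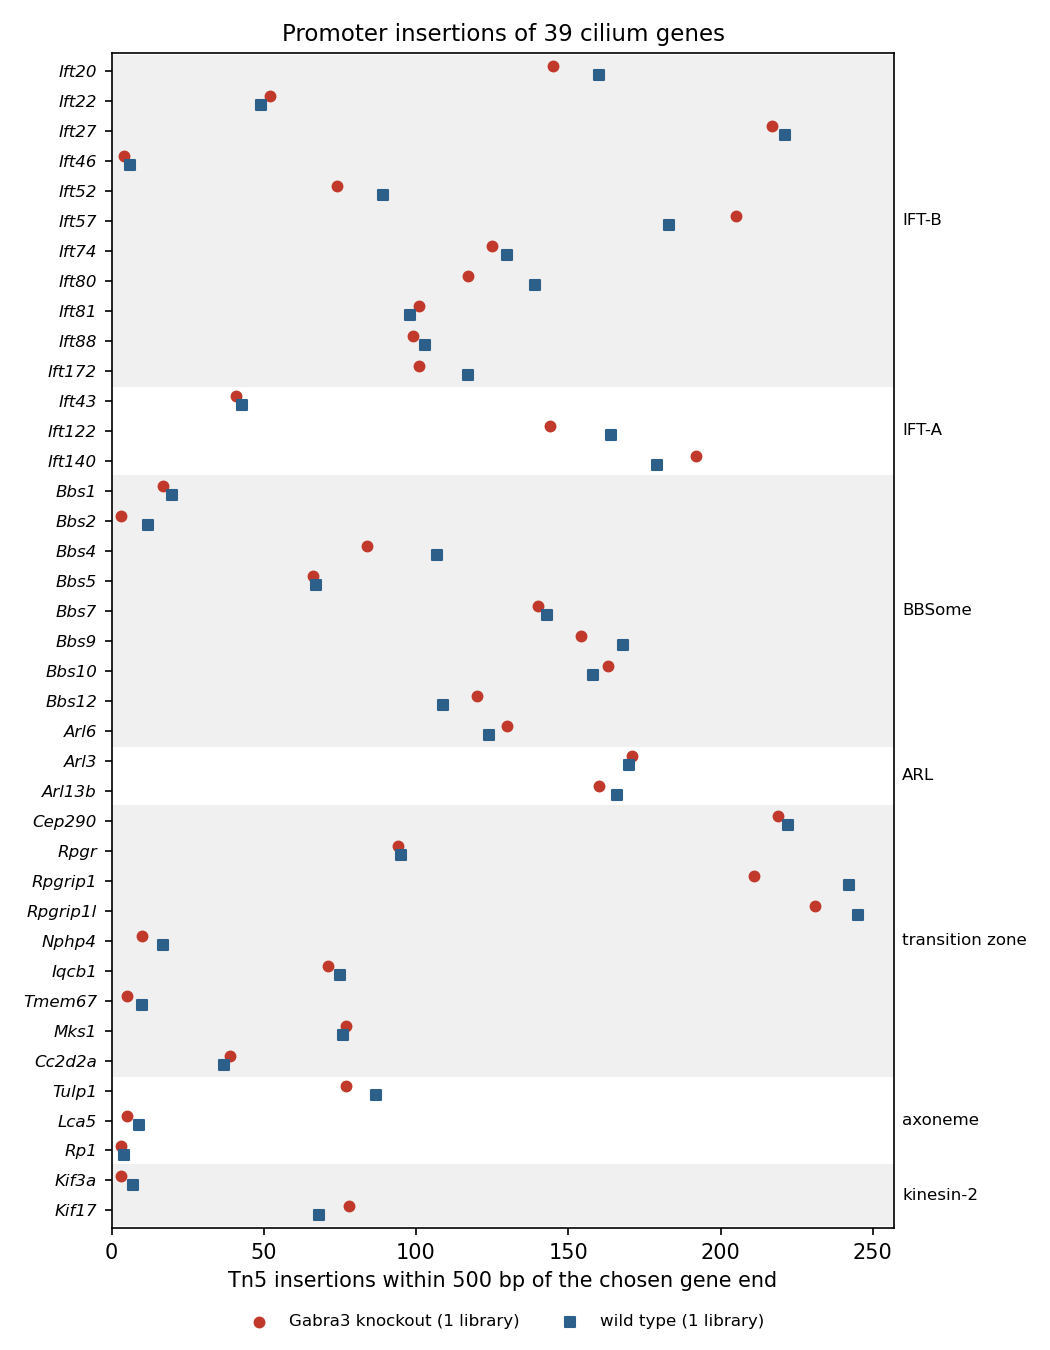
Tn5 insertions (x axis) within 500 bp of the chosen end of each of the 39 genes (rows, grouped by role), with the knockout library as red circles and the wild-type library as blue squares. Both libraries of a gene lie close together, and Rpgrip1l has most in both, with 231 knockout and 245 wild-type insertions.

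IFT-B is the larger complex of the transport trains, and 10 of its 11 genes here held at least 100 insertions at the promoter. Ift27, a small GTPase subunit, had 217 knockout and 221 wild-type insertions. Ift57 had 205 and 183, the largest of the positive ratios in this complex (log2 0.22, -0.07 to 0.52). Ift20, the subunit also found at the Golgi, had 145 and 160. These 3 promoters lay above the rest of the complex in both libraries.

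The other IFT-B promoters lay lower. Ift74 and Ift81 form a pair that binds tubulin, and had 125 knockout and 130 wild-type insertions for Ift74 and 101 and 98 for Ift81. Ift80 had 117 and 139, and Ift172, the largest subunit, 101 and 117. Ift88, whose hypomorphic mouse mutant has polycystic kidneys and retinal degeneration, had 99 and 103. Ift52 had 74 and 89, and Ift22, a GTPase-like subunit, 52 and 49. Ift46 had 4 and 6 at its gene end and is taken up below. Summed over the 11 genes there were 1240 knockout and 1295 wild-type insertions (log2 -0.00, -0.12 to 0.11).

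IFT-A returns cargo to the cell body, and its 3 genes were open to different degrees. Ift140 had 192 knockout and 179 wild-type insertions, Ift122 had 144 and 164, and Ift43 had 41 and 43. The ratios were 0.16 (-0.14 to 0.46), -0.13 (-0.46 to 0.20) and -0.01 (-0.66 to 0.64).

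Of the BBSome genes, Bbs9, a scaffold subunit, had the most insertions of the subunit genes at its gene end, with 154 knockout and 168 wild-type insertions. Bbs7 followed with 140 and 143, Bbs4 with 84 and 107 (log2 -0.29, -0.72 to 0.14) and Bbs5 with 66 and 67. Bbs1, the subunit that meets Arl6, was low, with 17 and 20. Both chaperonin-like genes that help assemble the complex were open, Bbs10 with 163 and 158 and Bbs12 with 120 and 109. Arl6, the GTPase that recruits the BBSome to membranes, had 130 and 124. Bbs2 held 3 and 12 at its gene end, and 195 and 191 at its annotated start. Summed over these 9 gene ends there were 877 knockout and 908 wild-type insertions (log2 0.01, -0.13 to 0.14).

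Arl3, the GTPase that unloads lipidated proteins in the cilium, had 171 knockout and 170 wild-type insertions. Arl13b, which activates Arl3, had 160 and 166. The ratios, 0.07 (-0.25 to 0.38) and 0.01 (-0.32 to 0.33), had intervals that overlapped almost fully.

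Counted at gene ends, transition zone genes held the most open windows of the list and some of the least open. Rpgrip1l, which anchors other transition zone proteins, had 231 knockout and 245 wild-type insertions. The gene end of Rpgrip1, the anchor of Rpgr in photoreceptors, had 211 and 242, and Cep290, which bridges axoneme and membrane, had 219 and 222. Each of these 3 windows is shared with a neighbour gene, and the annotated start of Rpgrip1 held 48 and 50. No interval was computed for the order of the 3. Rpgr, the X-linked retinitis pigmentosa gene, had 94 and 95 on a chromosome whose copy number is not known here. Mks1 had 77 and 76, and Iqcb1, a Cep290 partner, 71 and 75. Cc2d2a had 39 and 37, Nphp4 had 10 and 17, and Tmem67, which encodes meckelin, had 5 and 10. The most open annotated start of Nphp4 held 174 and 179, and no annotated start of Tmem67 was used.

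Apart from Tulp1 and Kif17, photoreceptor axoneme and motor genes showed few insertions at gene ends. Tulp1, a tubby-like protein of photoreceptors that is needed for protein transport to the outer segment, had 77 knockout and 87 wild-type insertions (log2 -0.12, -0.58 to 0.34). Lca5, which encodes lebercilin, had 5 and 9, and Rp1, a microtubule protein of the outer segment axoneme, had 3 and 4. Kif17, a kinesin-2 motor, had 78 and 68 (0.26, -0.23 to 0.75). Kif3a, a subunit of the main kinesin-2, had 3 and 7.

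No member promoter with at least 100 insertions differed between the libraries by 1.5-fold. Of these 29 promoters 0 were 1.5-fold or more higher in the knockout library, where 0.519% of 7509 promoters were. Likewise 0 of the 29 were 1.5-fold or more lower, where 0.226% were. Their ratios ran from -0.29 (Bbs4) to 0.26 (Kif17), and the counting interval of all 29 lay within 2-fold and of 24 within 1.5-fold. No interval of the 33 member promoters with at least 20 insertions lay apart from 0, where 1.9% of 11893 promoters lay apart on the higher side and 1.28% on the lower side. Of the 6 promoters under 20 insertions, Bbs2 had an interval apart from 0 at its gene end (3 knockout and 12 wild-type insertions, log2 -1.78, -4.41 to -0.05), and not at its annotated start (195 and 191, log2 0.09, -0.21 to 0.38).

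The ratios of the list centred on 0. The median over the 33 promoters with at least 20 insertions was 0.01, with 19 above 0 and 14 below, against a median of 0.02 over all promoters so measured. With all autosomal insertions as the scale, 11 lay above 0 and 22 below (median -0.06, against -0.04 for all promoters), so the balance of signs follows the scaling. The 39 promoter windows together held 3948 knockout and 4119 wild-type insertions (log2 -0.00, -0.07 to 0.06).

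**Figure D2:**
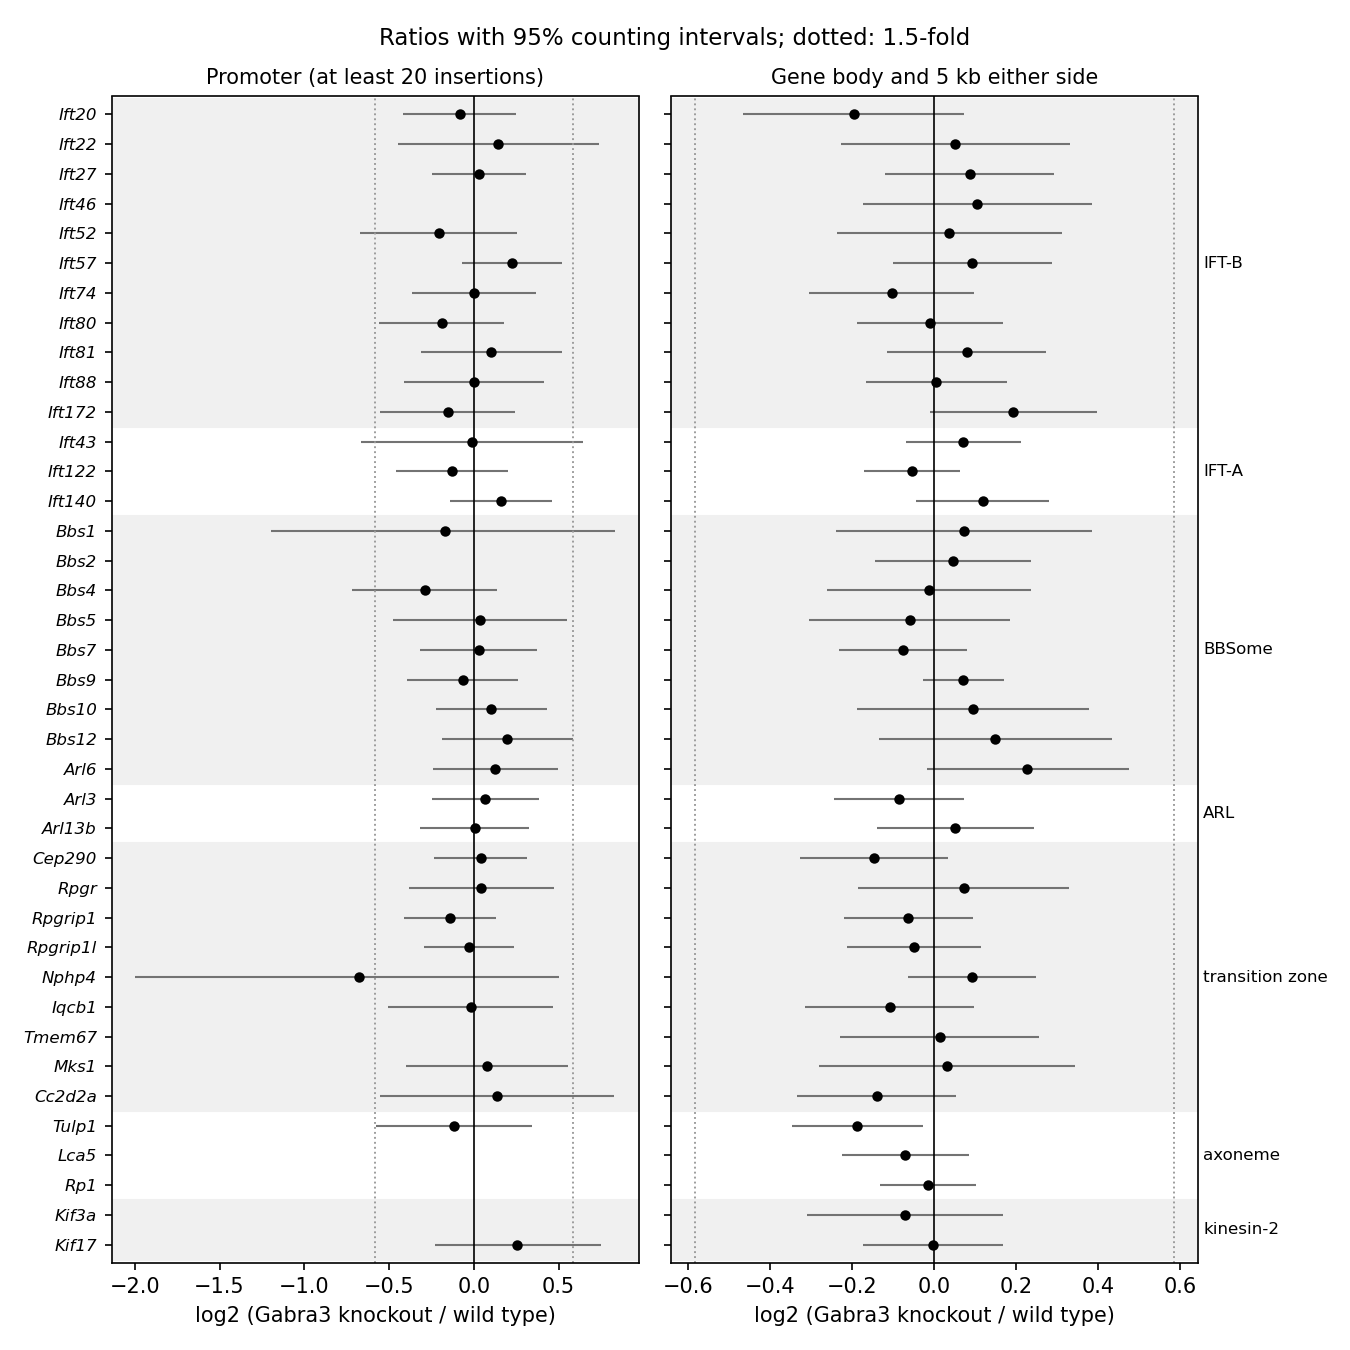
Log2 ratios of knockout over wild type with 95% counting intervals for each gene (rows, grouped by role), for the 33 promoters with at least 20 insertions (left) and for the gene body with 5 kb either side (right). Dotted lines mark 1.5-fold; no interval on the left lies apart from 0, and on the right, with all autosomal insertions as the scale, that of Tulp1 does, which ends under both other scalings while Arl6, Ift172 and Bbs9 then lie apart on the higher side.

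Gene ends missed the start of several members, and the annotated starts were open there. For 27 of the 34 genes with an annotated start, the start with most insertions lay within 500 bp of the chosen gene end (79.4%, against 67.8% of all protein-coding genes). The start of Kif3a lay 1668 bp from the gene end and held 98 knockout and 111 wild-type insertions, in place of 3 and 7. The more open start of Nphp4, 1032 bp in, held 174 and 179, in place of 10 and 17. That of Bbs2, 860 bp away, has been given above.

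Larger distances were found at the other 4. The chosen end of Ift46 was also the far end of the gene, and its start, 19705 bp away, held 63 knockout and 56 wild-type insertions. Lca5 was likewise read at its far end, and the start, 49744 bp away, held 131 and 109 (log2 0.32, -0.05 to 0.70). The Ift74 window at the gene end, with 125 and 130, lay 11225 bp from the annotated Ift74 start, which held 70 and 81. The Rpgrip1 window with 211 and 242 insertions lay 6662 bp from the annotated Rpgrip1 start, which held 48 and 50. Rpgrip1 is thus among the most open of the 39 by its gene end and among the least by its annotated start.

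Counted at annotated starts, all 34 genes had at least 20 insertions, with a median of 215 over both libraries, against 39 for 17492 protein-coding genes. The median log2 ratio was 0.03, against 0.02 for all. Bbs1 was lowest, with 18 knockout and 20 wild-type insertions, and Rpgrip1l highest, with 221 and 234.

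The profile around the starts had a similar shape in both libraries. Within 50 bp of the starts of the 34 genes there were 900 knockout and 879 wild-type insertions, and at 1900 to 2000 bp on both sides 36 and 33. Of the insertions within 200 bp, 60.7% of the knockout library (58.8 to 62.5) and 60.0% of the wild-type library (58.2 to 61.8) lay upstream. Over all genes these shares were 58.6% and 59.5%. The start used was the one with most insertions, which raises the level at the start of both gene sets.

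**Figure D3:**
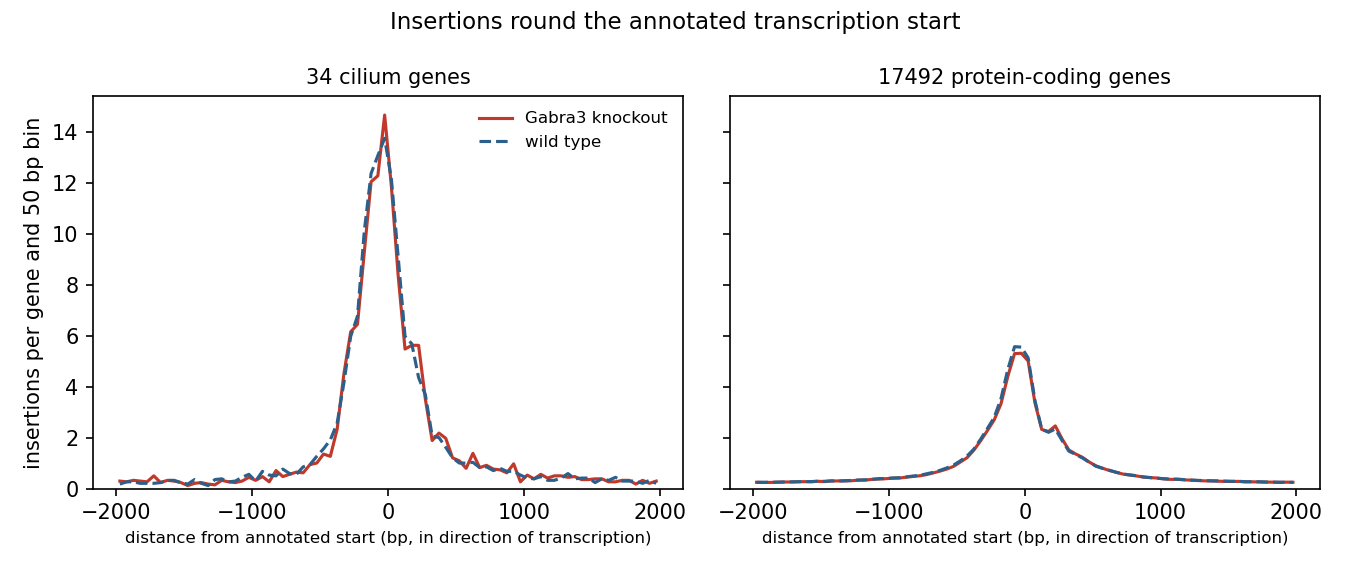
Insertions per gene and 50 bp bin (y axis) against distance from the annotated start in bp (x axis), for 34 cilium genes (left) and 17492 protein-coding genes (right), knockout in red and wild type in dashed blue. The lines of both libraries nearly coincide, and the peak of the cilium genes is the higher.

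Many cilium promoters were shared with a neighbour gene. In 10 of the 39 windows (25.6%) the end of another protein-coding gene lay within 500 bp of the chosen end, against 12.7% of all genes. Among promoters with at least 100 insertions the shares were 34.5% of 29 members and 25.7% of 7509. The pairs, with the distance between the ends, were Ift74 with Plaa (19 bp), Ift122 with Mbd4 (21 bp), Ift80 with Smc4 (58 bp), Rpgrip1l with Fto (76 bp), Ift20 with Tnfaip1 (91 bp), Bbs12 with Cetn4 (101 bp), Arl3 with Sfxn2 (143 bp), Cep290 with Tmtc3 (183 bp), Rpgrip1 with Hnrnpc (202 bp) and Ift140 with Cramp1l (243 bp). Shared windows held a median of 324.5 insertions over both libraries (229 to 476), and the 29 others 153 (7 to 438). Insertions in a shared window cannot be assigned to either gene.

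Over the gene body with 5 kb either side, the loci also differed little between libraries. These loci span 13.1 to 423 kb, hold a protein-coding neighbour in 28 of 39 cases, and are scaled to all autosomal insertions, since most of their length lies outside open regions. Together they held 19386 knockout and 19357 wild-type insertions (log2 -0.00, -0.03 to 0.03), with 21 ratios above 0 and 18 below. All 39 ratios lay between -0.20 and 0.23, and 0 of 39 reached 1.5-fold, where 0.185% of 16724 loci did so on the higher side and 0.108% on the lower. The density was a median of 14.2 insertions per kb over both libraries, against 9.79 for all genes.

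Tulp1 was the densest of the 39 loci, and with this scaling it alone had an interval apart from 0, a call that ended under both other scalings. It held 604 knockout and 687 wild-type insertions, or 54.5 per kb over both libraries, with a log2 ratio of -0.19 (-0.35 to -0.03). Of the 39 loci 1 lay apart on the lower side, where 3.89% of all loci did, and 0 on the higher side, where 3.11% did. Outside its open regions the Tulp1 locus (gene at chr17:28351515-28365216) held 377 and 426 insertions (-0.18, -0.38 to 0.02). The open region at its other end, which also adjoins Tead3, held 128 and 154. With insertions in open regions as the scale the Tulp1 ratio was -0.13 (-0.29 to 0.03), and with the trimmed mean of M values -0.15 (-0.31 to 0.01).

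Under those scalings other member loci lay apart from 0, on the higher side. With insertions in open regions as the scale they were 4 of 39, where 8.41% of all loci were higher and 1.31% lower. They were Arl6 (0.29, 0.04 to 0.54), Ift172 (0.25, 0.05 to 0.46), Ift140 (0.18, 0.02 to 0.34) and Bbs9 (0.13, 0.03 to 0.23). With the trimmed mean of M values 3 of these, without Ift140, lay apart, where 6.01% of all loci were higher and 1.98% lower. The number of member ratios above 0 was 28 and 25 under these scalings, in place of 21.

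Loci of several retinal cell markers were also on the lower side with all autosomal insertions as the scale. Those of the 12 rod markers together had 9964 knockout and 10337 wild-type insertions (-0.06, -0.10 to -0.02). Loci of 6 Muller glia markers had 795 and 871 (-0.13, -0.27 to 0.01), and those of 6 bipolar markers 3173 and 3386 (-0.10, -0.17 to -0.03). Most of the bipolar sum came from Prkca alone, with 2256 and 2465, and 3 of the 6 bipolar loci lay above 0 and 3 below. Amacrine (-0.07), retinal pigment epithelium (-0.02) and liver and muscle (-0.01) loci were lower too. Cone (0.01), ganglion (0.01), microglia and immune (0.03) and vascular (0.04) loci were higher, and all 7 of these intervals included 0. With insertions in open regions as the scale the rod (0.01), bipolar (-0.03) and Muller glia (-0.07) intervals included 0. Cone loci then lay apart on the higher side (0.07, 0.003 to 0.14). The part of the marker shifts in the Tulp1 value was not tested.

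The other loci at either end of the range had intervals that included 0 with all autosomal insertions as the scale. Ift20 was the lowest of the 39, with 215 knockout and 246 wild-type insertions (log2 -0.20, -0.47 to 0.07). After Ift20 and Tulp1 came Cep290 with 485 and 536 (-0.15), Cc2d2a with 418 and 460 (-0.14) and Iqcb1 with 379 and 408 (-0.11). The highest were Arl6 with 298 and 254 (0.23, -0.02 to 0.48), Ift172 with 426 and 372 (0.19, -0.01 to 0.40), Bbs12 with 220 and 198 (0.15), Ift140 with 648 and 596 (0.12) and Ift46 with 222 and 206 (0.11).

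Among the loci with most insertions in each role, Bbs9 led, with 1717 in the knockout and 1632 in the wild-type library over 423 kb (0.07, -0.03 to 0.17). Rp1 held 1186 and 1196 (-0.01, -0.13 to 0.10), Ift122 held 1168 and 1211 (-0.05, -0.17 to 0.06), and Ift43 held 852 and 810 (0.07, -0.07 to 0.21). Lca5 had 663 and 695, Nphp4 691 and 647, and Rpgrip1 648 and 676. Bbs7 had 649 and 683, and Arl3 641 and 679. Kif17 was equal, with 562 in each library, and Ift88 nearly so, with 557 and 554. Ift80 had 521 and 524, Arl13b 461 and 444, and Kif3a 287 and 301. Intervals of all of these included 0 with this scaling.

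Each of the 39 loci held at least 1 open region, against 68.7% of all protein-coding loci, which are shorter (median 27.2 kb, against 54.4 kb for the members). There were 109 open regions in all, or 3.79 per 100 kb, against 2.62 per 100 kb for all genes. They held 7129 knockout and 7538 wild-type insertions (log2 -0.02, -0.07 to 0.03). At annotated starts lay 35 of them, in each of the 34 genes with a start, with a median of 206 insertions and a median width of 800 bp. Regions inside genes, away from gene ends and from any annotated start used, numbered 51 in 20 genes. They were narrower and weaker, with a median of 350 bp and 32 insertions. For Rp1, Ift122, Ift80 and Tmem67 no annotated start was used, so their regions inside the gene may include starts. Those at starts had 3888 knockout and 3985 wild-type insertions in sum (0.02, -0.04 to 0.09) and those inside genes 1153 and 1252 (-0.06, -0.18 to 0.06). A further 11 regions adjoined a neighbour gene.

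Open regions were also summed per locus, for the loci with most insertions and for those with the highest and lowest ratios. They held 601 knockout and 697 wild-type insertions for Ift122, 387 and 398 for Bbs7, 304 and 336 for Arl3, and 300 and 315 for Lca5. For Kif17 they held 285 and 274, for Rpgrip1 242 and 281, for Nphp4 228 and 229, and for Bbs9 214 and 233. Those of Rp1 held 201 and 219, of Arl13b 199 and 216, of Ift43 150 and 152, of Ift80 140 and 174, of Ift88 96 and 97, and of Kif3a 91 and 109. Every one of these intervals included 0 with insertions in open regions as the scale, that of Ift122 narrowly (-0.15, -0.31 to 0.005). Among the lowest locus ratios, the open regions of Cep290 held 241 knockout and 261 wild-type insertions, those of Iqcb1 238 and 267, those of Tulp1 227 and 261, those of Ift20 142 and 158, and those of Cc2d2a 73 and 102 (log2 -0.42, -0.88 to 0.02). Among the highest, those of Ift140 held 202 and 192, those of Ift172 171 and 159, those of Arl6 140 and 132, those of Bbs12 109 and 101, and those of Ift46 104 and 100. These intervals also included 0 with that scale. Scaling to all autosomal insertions lowers each ratio by 0.06, which puts the intervals of Ift122 and Cc2d2a below 0. The share of all loci with such an interval was not computed.

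Rp1 had its open DNA inside the gene. The gene (chr1:4115673-4409266) had 6 open regions, none within 1000 bp of a gene end. The strongest, 25.5 kb in (chr1:4383401-4384100), held 75 knockout and 87 wild-type insertions, and a further pair at 48.9 and 51.4 kb held 41 and 48 and 60 and 67. No annotated start of Rp1 was used here. Lca5 had, besides its start, a region 36.8 kb from the chosen end with 75 and 81 insertions and a region beyond the start with 50 and 71. Arl3 had a region 9.68 kb into the gene with 73 and 97 (log2 -0.35, -0.81 to 0.10).

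The Ift122 gene body without flanks held 786 knockout and 782 wild-type insertions (log2 0.00, -0.14 to 0.15). Within Ift122 a region 37.6 kb from the chosen end (chr6:115890601-115891350) held 79 and 80.

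**Figure D4:**
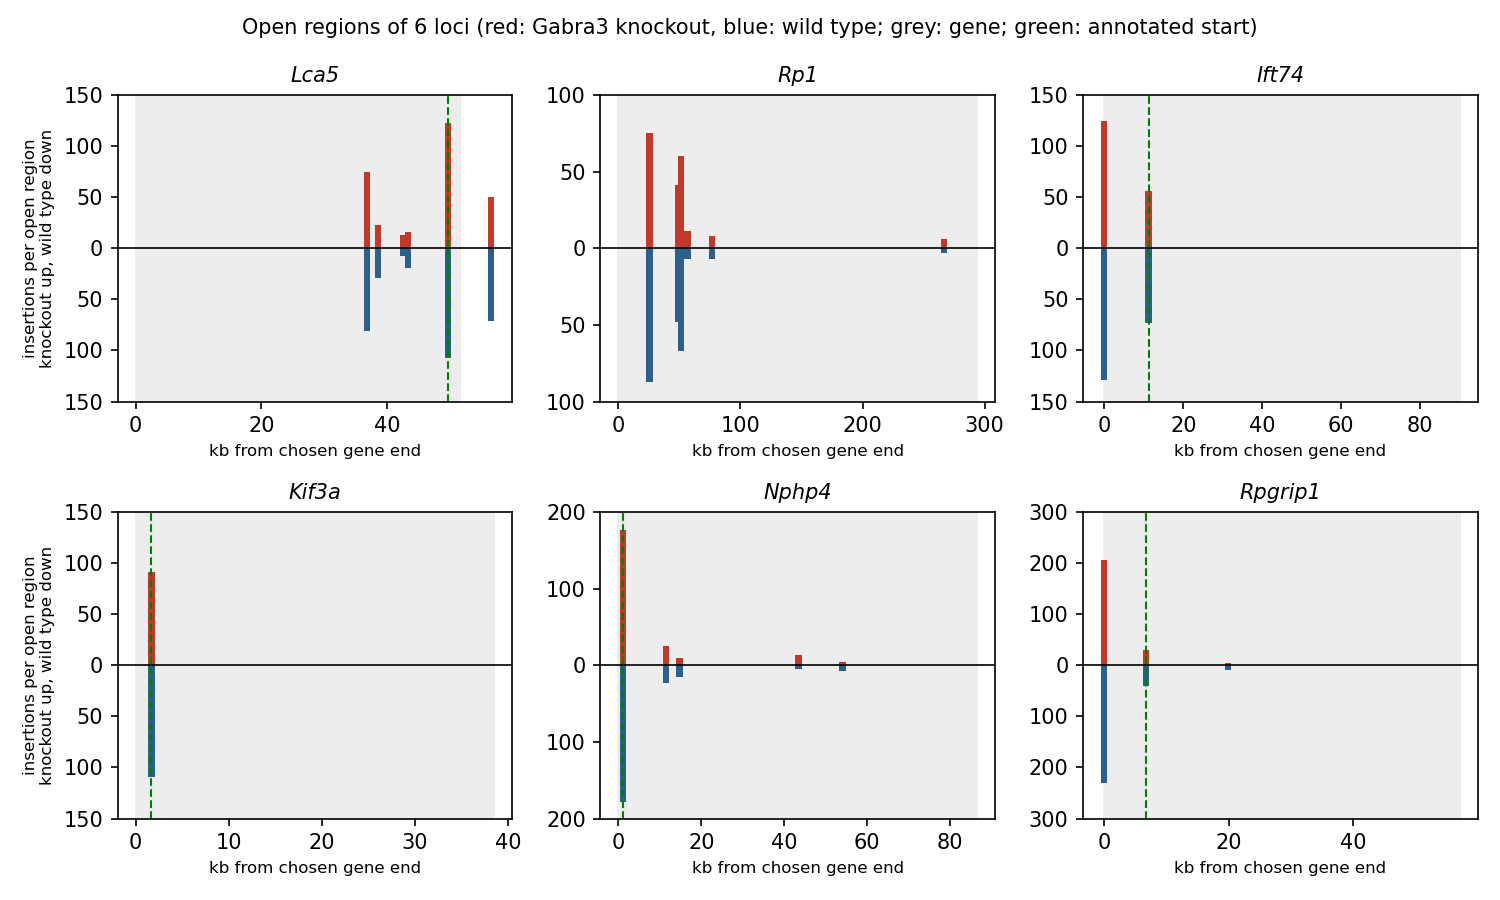
Insertions per open region (y axis; knockout upward in red, wild type downward in blue) against the distance in kb from the chosen gene end (x axis) for 6 loci (Lca5, Rp1, Ift74, Kif3a, Nphp4 and Rpgrip1), with the gene in grey and the most open annotated start as a green dashed line where there is one. At Lca5, Kif3a and Nphp4 the tallest bars stand at the start, at Ift74 and Rpgrip1 they stand at the gene end, and at Rp1 they stand inside the gene.

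Of the 53 open regions with at least 100 insertions in these loci, 2 were 1.5-fold or more higher in the knockout library and 0 lower, where 0.532% and 0.363% of 8827 regions were. The first lay 2.17 kb into Tmem67 (chr4:12087551-12088150), with 62 knockout and 38 wild-type insertions (log2 0.76, 0.16 to 1.39). The region next to it, 0.67 kb in, held 50 and 68 (-0.38, -0.94 to 0.16), and the whole Tmem67 locus 283 and 280. The second adjoined Fndc4, at -4.43 kb from the chosen end of Ift172, outside the gene (chr5:31295451-31296200), with 74 and 47 (0.71, 0.17 to 1.27), while the Ift172 promoter had 101 and 117.

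Over all 109 regions, 2 had an interval apart from 0 on the higher side and 2 on the lower, where 1.23% and 1.76% of 37044 regions did. The higher ones were those just given. The lower ones were weak: a region by Ift80 and Smc4 with 6 knockout and 19 wild-type insertions (log2 -1.53, -3.22 to -0.22), and a region 27.8 kb into Bbs9 with 2 and 10 (-2.01, -5.49 to -0.03). Such regions are picked as extremes, and their summed counts of 25 and 12 give little precision.

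Further genes of the primary cilium, in 4 lists, had promoter levels close to those of the 39. Of 67 such genes 52 (77.6%) had at least 100 promoter insertions over both libraries, and the median was 190, against 199 for the 39 members. Their median log2 ratio was 0.05 over 62 measured promoters, with 39 above 0 and 23 below, where 53.6% of all measured promoters lay above 0. With all autosomal insertions as the scale the median was -0.01, with 28 above 0 and 34 below. Of the 52 with at least 100 insertions 1 was 1.5-fold or more higher and 0 were lower, where 0.519% and 0.226% of all promoters were. The higher one was Arl2bp, an Arl2- and Arl3-binding protein, with 98 knockout and 64 wild-type insertions (0.67, 0.20 to 1.15) and 207 and 152 over its locus.

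Named examples of these lists lay close together in both libraries. Hspb11, an IFT-B subunit, had 206 knockout and 211 wild-type insertions, and Wdr19, an IFT-A subunit, 164 and 169. The dynein-2 intermediate chain genes Wdr34 and Wdr60 had 87 and 77 and 64 and 75. In the BBS and trafficking list, Rab8a had 272 and 278 and Mkks, a chaperonin-like gene, 235 and 258. Ttbk2, the kinase that starts ciliogenesis, had 204 and 230. Tmem231 had 96 and 74 (0.43, -0.02 to 0.89) and Tmem237 61 and 82 (-0.36, -0.87 to 0.13). Among photoreceptor cilium disease genes Cfap410 had 181 and 182, Nek1 169 and 169, Whrn 67 and 55, and Poc1b 96 and 119. The intervals of all of these included 0.

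Genes of motile cilia, which photoreceptors do not carry, were mostly at the level of a typical gene. Of 25 such genes 6 (24.0%) had at least 100 promoter insertions, and the median was 25 over both libraries, against 26 for all genes and 199 for the 39. Of those 6, Dnaic1 (238 knockout and 215 wild-type insertions), Ccdc151 (210 and 208), Dnaaf1 (113 and 115) and Tekt2 (79 and 85) shared the window with a neighbour gene. Foxj1, the master regulator of motile ciliogenesis, had 72 and 79. Of the 7 RFX genes, Rfx2 had 119 and 148 (log2 -0.25, -0.62 to 0.10) and Rfx7 103 and 102, while the 5 others had fewer than 20 over both libraries at their gene ends. This comparison between lists of genes is a description and was not tested.

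**Figure D5:**
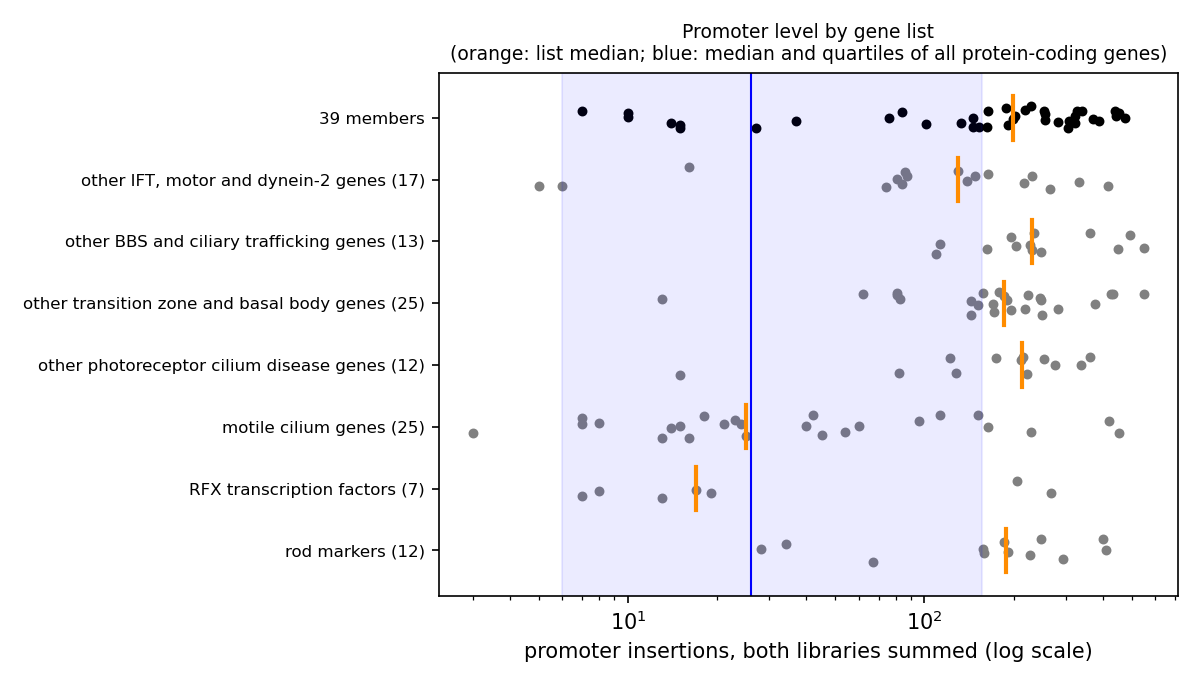
Promoter insertions summed over both libraries (x axis, log scale) for each gene (points) of 8 lists (rows), with the list median in orange and the median and quartiles of all protein-coding genes in blue. The 39 members have a median of 199 and motile cilium genes of 25, beside a median of 26 for all genes.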

How the data were processed

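Each line of the deposited files is an aligned read of 75 bp. The deposited score is its mapping quality (at most 37), not normalized, and the other deposited columns used are the start and end of the read. Per the submitters' processing notes, Trimmomatic 0.33, BWA and bedtools 2.23.0 were used with genome GRCm38 (mm10). No BWA version is named, and what each tool did and whether duplicates were removed is not stated there.

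From 9038110 knockout and 9170838 wild-type reads, those with mapping quality of at least 10 were kept, 5-prime ends were shifted by 4 bp (plus strand) or -5 bp (minus strand), and each position and strand was counted once. Repeats made up 9.41% of these knockout reads and 11.0% of wild-type reads. Both files held reads of 21 chromosomes, and the reads of each file came from 1 flow cell and 4 lanes. Whether the libraries shared the flow cell and lanes was not compared. Open regions were windows of 200 bp (step 50 bp) whose count had a Poisson p below 1e-05, given the genome mean or that of the surrounding 10000 bp, whichever was larger, merged within 150 bp, on the insertions of both libraries, drawn to equal depth and pooled. Ratios used a pseudocount of 0.5. A promoter counted as measured with 20 insertions, and was compared at 1.5-fold with 100.

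Gene positions came from the RefSeq table of GRCm38.p6, and starts and sequences from RefSeq promoter windows. The ratio, its interval and the region caller were tested on simulated data. With 1 library per genotype no test and no p was computed. The 39 members were to be accounted for in full, with loci named by most insertions per role and by the 5 highest and 5 lowest ratios. From each other list, the 2 most open and the highest and lowest ratios were taken. Some genes that these rules name are not reported here. The members and lists were chosen with earlier results of these data known. Open regions, start positions and sequences to show were picked after their values were seen. Python 3.11.15, numpy 2.4.6, pandas 2.3.3 and scipy 1.17.1 were used.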

Additional observations from a re-analysis of the deposited data

How the results depend on the processing

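No paired analysis was possible because each genotype had 1 library. Other settings tried were the scaling, repeated reads, mapping quality of at least 30, no Tn5 shift, a pseudocount of 1, narrower and wider windows, both gene ends, the minimum count, and leaving out members with a shared window. Annotated starts in place of gene ends and leaving out Ift122 were chosen after seeing the data. No promoter with at least 100 insertions, or with at least 50 under that minimum, was 1.5-fold apart under any of the scalings, filters and windows run. With no minimum 5 were lower, all at gene ends with 10 to 27 insertions (Bbs2, Nphp4, Tmem67, Lca5 and Kif3a).

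With all repeats kept the median promoter log2 ratio was 0.093. With all autosomal insertions as the scale the open regions together had -0.083 (-0.130 to -0.036), apart from 0. The loci, scaled to insertions in open regions instead, had a median of 0.074 and a sum ratio of 0.061 (0.032 to 0.090). With the trimmed mean of M values these were 0.053 and 0.040 (0.011 to 0.068), so both locus sums then lay apart from 0. Without members that share a window the median of the loci was 0.045. These shifts in sums follow the scale itself, which moves all genes alike. Over all settings the promoter sum ratio ran from -0.064 to 0.034 and the promoter median from -0.055. The lowest promoter sum ratio, with all autosomal insertions as the scale, had an interval of -0.127 to -0.0003. The cause of the other shifts was not tested. Depth limits promoters under 100 insertions most, and no replicate checks any value.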
